A study of Homo sapiens with 7 samples.

Results

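CREB5, CREB1 and CREB3L2, members of the CREB family, were followed through the super-enhancer (SE) lists of HepG2 cells. An SE is a cluster of H3K27ac peaks joined into one long domain whose summed signal passes the cutoff of its library. SEs were taken when the list linked them to CREB5, CREB1 or CREB3L2, or when their midpoint lay in the body of CREB3L2 on chromosome 7. This gave 9 of 7472 listed SEs, which fell into 3 of 1784 regions after SEs of different libraries sharing at least 1 bp were merged. No SE was linked to CREB3L2 by name (0 of 7472), and the 3 SEs in its body were all linked to the antisense gene CREB3L2-AS1.

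HepG2 is an established human liver cancer line. The treated cells received tunicamycin (TM), which blocks N-linked glycosylation and thereby causes endoplasmic reticulum stress (ERS), and the control cells received the solvent DMSO. H3K27ac, an acetylated histone residue found at active promoters and enhancers, was profiled by ChIP-seq in 3 libraries per group, called TM 1 to TM 3 and DMSO 1 to DMSO 3. The dose and duration of TM for these libraries are not given in the labels, and neither is it said that the replicates were grown apart, so the p-values cover the variation between libraries, which may be technical.

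CREB proteins are basic leucine zipper transcription factors that bind the cAMP response element (CRE) and its variants. CREB1 is the classical effector of cAMP: protein kinase A phosphorylates it, after which it recruits the acetyltransferases CBP and p300. CREB5 has a leucine zipper close to that of ATF2 and can pair with JUN. CREB3L2, also named BBF2H7, is made as a membrane protein of the endoplasmic reticulum and is cut in the Golgi during ERS to free its transcription factor part.

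The TM lists held 1130, 1507 and 1253 SEs and the DMSO lists 1132, 1290 and 1160. The lowest signal in a list, which stands for its cutoff, was 18282, 26265 and 18884 in TM 1 to TM 3, against 24793, 16747 and 24383 in DMSO 1 to DMSO 3. Read totals are unknown. A locus missing from a list has no value there and may carry H3K27ac below the cutoff. In the 670 regions listed in all 6 libraries, median density, the signal per bp, was 0.38 higher in TM on the log2 scale, and density differences at these regions are given relative to that shift. Of 24 hepatocyte and HepG2 marker genes, 2 were linked to an SE in all 6 libraries (ONECUT2 and CPS1). TM4SF4 was linked in 3 DMSO libraries, FOXA1 in 2 DMSO libraries, neither in TM, and the other 20, ALB, AFP and HNF4A among them, in none. Of 12 markers of other liver cells, PTPRC was linked in 2 TM libraries, KRT7 in 1 TM library and LUM in 3 DMSO libraries, and the other 9 in none. The summed signal of SEs linked to these 12 genes was 0, 297266 and 20041 in TM 1 to TM 3, against 35269, 25687 and 36983 in DMSO 1 to DMSO 3, and its part in the results below was not tested.

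The sequences shown for these genes are the guides of the study and 2 promoters. The 3 guide RNAs below were designed by the study against the CREB5 SE for a dCas9-KRAB repressor, and are shown as the study's own sequences for that element. They are written 5′ to 3′ and were not placed on the coordinates used here, so whether they fall within the domain listed in TM was not tested.
CREB5 guide 1: acagctgtttaatgacactct
CREB5 guide 2: aaacaagagctgaacctatgg
CREB5 guide 3: cggagtgctgtgtttcggcca

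The promoter of CREB1 is shown because the CREB1 SEs ran across the start of the gene, and that of CREB3L2 because the SEs in its body ended close to its start. Both are RefSeq sequences of build GRCh38.p14, running from 250 bases before to 50 bases after the start. Capitals mark each CRE (TGACGTCA, which reads the same on both strands) and each GC box (GGGCGG, searched on both strands).
CREB1 promoter, chr2:207529712-207530011, plus strand: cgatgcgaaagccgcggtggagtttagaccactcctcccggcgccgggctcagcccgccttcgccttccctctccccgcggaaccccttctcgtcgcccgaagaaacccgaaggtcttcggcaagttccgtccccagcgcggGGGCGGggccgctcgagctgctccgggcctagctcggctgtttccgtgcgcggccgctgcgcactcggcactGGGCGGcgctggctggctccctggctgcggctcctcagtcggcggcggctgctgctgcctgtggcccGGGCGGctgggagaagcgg
CREB3L2 promoter, chr7:138002037-138002336, minus strand: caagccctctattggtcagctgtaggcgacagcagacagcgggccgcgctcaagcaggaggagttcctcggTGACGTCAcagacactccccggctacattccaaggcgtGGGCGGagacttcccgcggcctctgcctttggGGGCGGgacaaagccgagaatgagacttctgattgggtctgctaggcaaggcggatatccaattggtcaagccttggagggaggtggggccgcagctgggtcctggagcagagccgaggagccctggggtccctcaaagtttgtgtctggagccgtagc

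The CREB3L2 promoter held 1 full CRE, 179 bases before the start, and 2 GC boxes, whereas the CREB1 promoter held 0 CREs and 3 GC boxes. Of 35116 promoter windows of the same length, 1.85% held a CRE and 45.0% a GC box. These matches describe the letters only. The deposited positions are not on GRCh38, so the promoters above cannot be laid on the SE coordinates given below, which are printed as deposited with a build that the sources used here do not settle.

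CREB5 carried an SE in all 3 TM libraries and in 0 of 3 DMSO libraries, the largest difference that calls can show. With 3 libraries against 3, a two-sided exact permutation test cannot give less than p = 0.1, and it gave 0.1. Across all regions, 7.57% (135 of 1784) were likewise listed in 3 TM and 0 DMSO libraries, so the pattern is one that many regions shared.

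The CREB5 SE was a short domain inside intron 1 of 9 of transcript NM_182899. It lay at chr7:28384186-28400211 in TM 1, chr7:28384276-28400220 in TM 2 and chr7:28384000-28400951 in TM 3. Its midpoint stood 53.3, 53.3 and 53.5 kb inside the gene, counted from the start of that transcript. CREB5 has other starts. In GRCh38.p14 the gene begins at 28299321, and further CREB5 promoter windows begin at 28412268, 28435365 and 28685883. The SE was not converted to that build, so its place relative to them was not tested. The study describes its H3K27ac gain as lying in noncoding sequence upstream of CREB5. The lower edges fell within 276 bp of each other and the upper edges within 740 bp, and the stretch common to the 3 libraries, 15.9 kb, made up 94.0% of the merged region. The annotated midpoint fell in an MLT1L element, the long terminal repeat of an old retrovirus-like family, in TM 1 and TM 2, and in a MIR element, an old short interspersed repeat, in TM 3.

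Only a few peaks made up this domain, 2 in TM 1, 3 in TM 2 and 3 in TM 3. Its length was 16.0, 15.9 and 17.0 kb in TM 1 to TM 3, and at most 7.66% of the SEs in the same list were shorter. Its density was 1.36, 2.46 and 1.49 per bp, and between 7.37% and 12.5% of the SEs in the same list were denser. The CREB5 SE was therefore short and dense against its own lists, at 1.90 ± 0.31 times the median density of the list (SD, n = 3). Since a list takes only SEs whose density times length passes the cutoff, a domain this short had to be dense to appear there. Among the 135 regions listed in TM libraries alone, CREB5 stood 17th by mean density and 123rd by mean length.

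The summed signal at CREB5 was 21855 in TM 1, 39216 in TM 2 and 25269 in TM 3. These values put it at rank 868 of 1130, 841 of 1507 and 814 of 1253. They were 1.20, 1.49 and 1.34 times the lowest signal of the list, so CREB5 sat in the lower part of each list, and TM 2 had both the highest CREB5 signal and the highest cutoff.

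**Figure D1:**
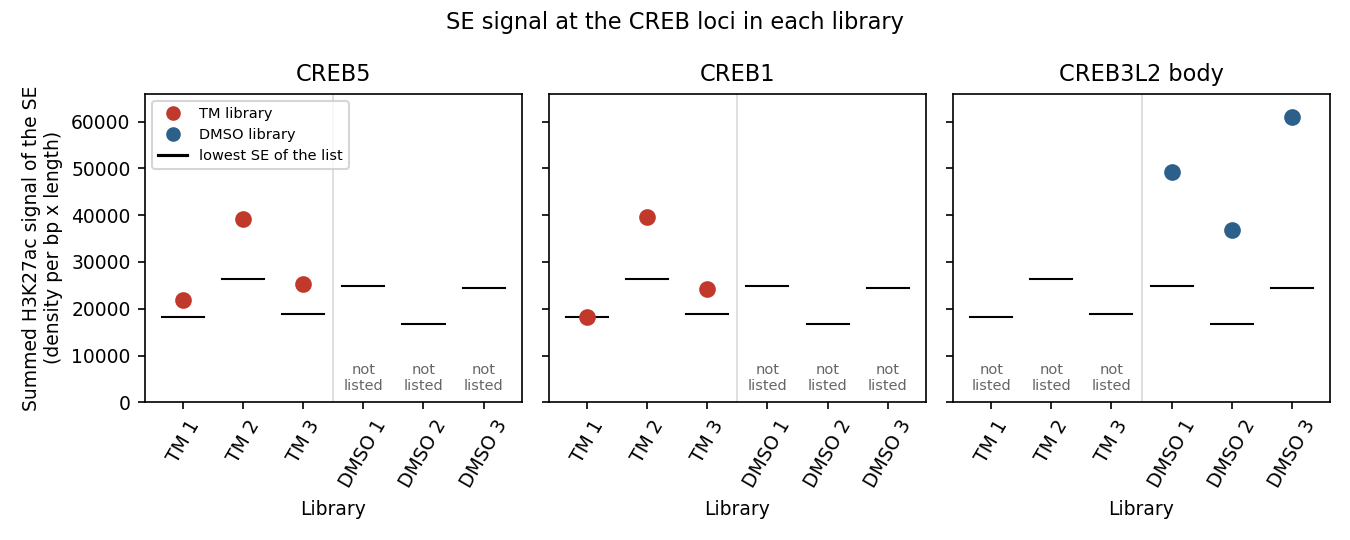
Summed H3K27ac signal (density per bp times length, linear axis from 0) of the SE at CREB5, CREB1 and the CREB3L2 body in each library, with points in red for TM and blue for DMSO libraries and a black bar at the lowest signal in the list of that library. The CREB5 and CREB1 points lie 1.00 to 1.51 times above the bar of their library, and the CREB3L2 body points 1.98 to 2.50 times above it.

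Because the cutoffs differed, the TM signals were set against the DMSO cutoffs. The CREB5 signals of TM 1 to TM 3 were 0.88, 1.58 and 1.02 times the highest DMSO cutoff, so the weakest of them would not have been listed in every DMSO library. A domain of the mean CREB5 length would have needed a density of 1.52, 1.03 and 1.50 per bp to be listed in DMSO 1 to DMSO 3, and 1, 3 and 1 of the 3 TM libraries had a higher density than that. After scaling by the total signal of the shared regions, the same ratios were 1.25, 1.29 and 1.27, all above 1, whereas scaling by their median density gave 0.85, 1.08 and 0.84. The side of the DMSO cutoff on which the TM signals fell thus depends on the scaling.

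CREB1, like CREB5, had an SE in every TM library and in 0 of the 3 DMSO libraries (two-sided exact permutation p = 0.1, the smallest possible). Its SE had a different form. It lay at chr2:208393508-208430862 in TM 1, chr2:208393387-208448619 in TM 2 and chr2:208393547-208432985 in TM 3. In each of these libraries it began 1.11, 1.23 and 1.07 kb before the start of CREB1 given in the lists and covered the first introns of the gene. The midpoint fell in intron 1 of 8 of NM_134442 in TM 1 and TM 3 and in intron 2 of 8 in TM 2.

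The edge near the promoter was fixed to within 160 bp, but the other edge moved by 17.8 kb. The length was 37.4, 55.2 and 39.4 kb in TM 1 to TM 3, with 10, 11 and 11 peaks. The density was 0.49, 0.72 and 0.62 per bp, and 88.9%, 82.7% and 82.0% of the SEs in the same list were denser. The CREB1 SE was thus a faint domain at 0.66 ± 0.03 times the median density of its list (SD, n = 3), with a length 0.91 to 1.26 times the list median. Among the 135 regions listed in TM alone it stood 123rd by density and 31st by length.

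The summed signal at CREB1 was 18318 in TM 1, 39635 in TM 2 and 24286 in TM 3, with ranks 1128 of 1130, 821 of 1507 and 876 of 1253. In TM 1 only 2 SEs ranked lower, and the signal was 1.002 times the cutoff, an excess of 36.4 over 18282. The listing of CREB1 in TM 1 therefore rests on the exact place of that cutoff. The signals were 0.74, 1.60 and 0.98 times the highest DMSO cutoff, so 1 of 3 TM libraries passed it. After scaling by the total signal of the shared regions they were 1.05, 1.30 and 1.22 times it, and after scaling by median density 0.71, 1.09 and 0.81 times it.

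The body of CREB3L2 had the opposite pattern, with an SE in 0 of 3 TM libraries and in all 3 DMSO libraries (two-sided exact permutation p = 0.1, the smallest possible). Of all regions, 5.44% (97 of 1784) were listed in 3 DMSO and 0 TM libraries. The SE lay at chr7:137633332-137688368 in DMSO 1, chr7:137632797-137688001 in DMSO 2 and chr7:137589510-137688181 in DMSO 3. CREB3L2 is read from the minus strand, and CREB3L2-AS1, a long noncoding RNA gene, lies inside it on the plus strand.

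The upper edge was fixed to within 367 bp and lay 50.3, 49.9 and 50.1 kb above the start of CREB3L2-AS1 in DMSO 1 to DMSO 3. In the GRCh38.p14 gene table the start of CREB3L2 lies 48.7 kb above that of CREB3L2-AS1. These distances come from different builds and were not converted. The lower edge of DMSO 1 and DMSO 2 agreed within 1 kb, while that of DMSO 3 reached 43.8 kb further. The midpoint fell in intron 1 of 11 of the CREB3L2 transcript NM_194071 in DMSO 1 and DMSO 2, and in intron 1 of 3 of NM_001243523, the transcript linked as CREB3L2-AS1, in DMSO 3.

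**Figure D2:**
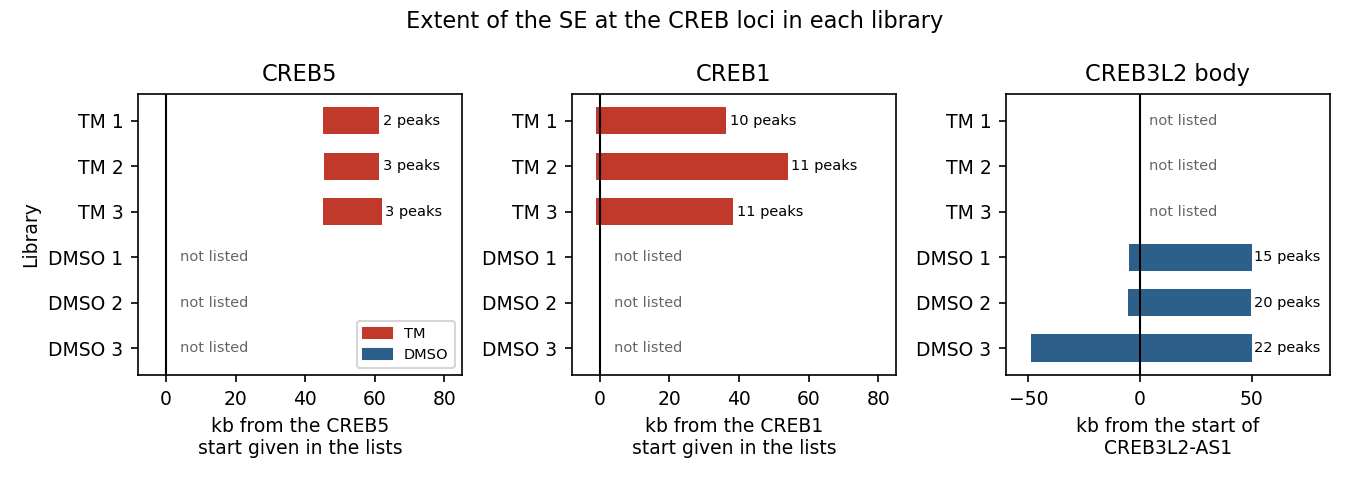
Extent of each listed SE along the axis in kb from the linked start (black line, the start of CREB3L2-AS1 in the right panel), one row per library, red for TM and blue for DMSO, with the number of joined peaks beside each bar. The CREB5 bars lie 45 to 62 kb past the start of NM_182899, the CREB1 bars share an edge about 1 kb before the start, and the CREB3L2 body bars share an edge about 50 kb above the antisense start.

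The CREB3L2 body SE was the strongest of the 3 against its own lists. Its summed signal was 49169 in DMSO 1, 36744 in DMSO 2 and 60979 in DMSO 3, at ranks 422 of 1132, 402 of 1290 and 311 of 1160. These were 1.98, 2.19 and 2.50 times the lowest signal of the list, a mean of 2.23 ± 0.26 (SD, n = 3), compared with 1.34 ± 0.15 for CREB5 and 1.27 ± 0.25 for CREB1 in their TM lists. Among the 97 regions listed in DMSO alone it stood 6th by this ratio, 12th by density and 33rd by length.

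The length was 55.0, 55.2 and 98.7 kb in DMSO 1 to DMSO 3, with 15, 20 and 22 peaks. The density was 0.89, 0.67 and 0.62 per bp, 1.10 ± 0.18 times the list median (SD, n = 3). The library with the longest domain, DMSO 3, thus had the highest summed signal and the lowest density.

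CREB3L2 cleared the cutoffs of the other group in every library, unscaled and under both scalings. CREB5 and CREB1 did so only after scaling by the total signal of the shared regions. The signals of DMSO 1 to DMSO 3 were 1.87, 1.40 and 2.32 times the highest TM cutoff, and 1.90, 1.96 and 2.33 times it after scaling by the total signal of the shared regions. Scaling by median density gave 2.69, 2.47 and 3.45. A domain of the same mean length, 69.6 kb, would have been listed in TM 1 to TM 3 at a density of 0.26, 0.38 and 0.27 per bp, and all 3 DMSO densities lay above these values. At least 99.5% of the SEs in each TM list were denser than that.

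**Figure D3:**
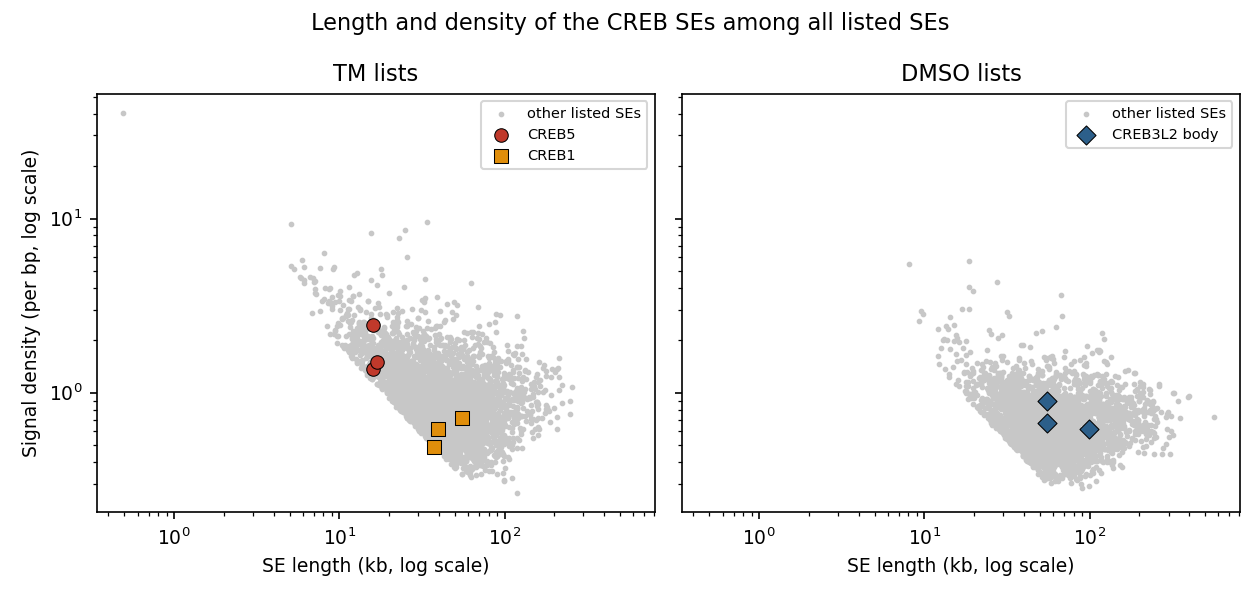
Length (kb) and density (signal per bp) of every listed SE, both on log scales, in the 3 TM lists (left) and the 3 DMSO lists (right), with the CREB SEs as large symbols over all others in grey. CREB5 lies at 15.9 to 17.0 kb and 1.36 to 2.46 per bp, CREB1 at 37.4 to 55.2 kb and 0.49 to 0.72 per bp, and the CREB3L2 body at 55.0 to 98.7 kb and 0.62 to 0.89 per bp.

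The SEs nearest to each member were examined next. Below CREB5, every library listed an SE linked to JAZF1-AS1, antisense to the zinc finger gene JAZF1. The SE adjoining CREB5 there was 26.9, 57.4 and 56.6 kb long with 6, 10 and 13 peaks in TM 1 to TM 3, against 127.7, 160.5 and 173.0 kb with 33, 40 and 42 peaks in DMSO 1 to DMSO 3. The TM lists as a whole also held shorter SEs of fewer peaks. Their median length was 40.8, 44.0 and 38.0 kb in TM 1 to TM 3, against 61.4, 50.9 and 65.5 kb in DMSO 1 to DMSO 3. The median number of peaks was 8, 8 and 7, against 14.5, 13 and 16. The TM libraries listed 2 SEs each in the JAZF1-AS1 region where the DMSO libraries listed 1. Its density over the whole region did not pass the test (log2 difference 0.03, SE 0.12, limma adjusted p = 0.88).

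Above CREB5 the next SE, linked to MIR550B1 or DKFZP586I1420, was 1923 kb away in TM 1. Density there was 0.69, 1.29 and 0.92 per bp in TM 1 to TM 3, against 1.24, 0.79 and 1.17 per bp in DMSO 1 to DMSO 3, so the groups overlapped. It fell by 0.54 on the log2 scale relative to the shift of all shared regions (SE 0.15, limma adjusted p = 0.039), and without centring the difference was -0.16 (limma adjusted p = 0.66). The call was lost in 4 of the 6 fits that left out a library, those without TM 1, TM 3, DMSO 1 or DMSO 3, with limma adjusted p from 0.087 to 0.13. Of the 670 shared regions, 6.72% were higher and 10.6% lower in TM by this test.

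CREB1 lay between the SEs of KLF7, a Krüppel-like transcription factor, and CPS1, the entry enzyme of the urea cycle, in all 6 libraries. KLF7 density was 0.57, 0.73 and 0.57 per bp in TM 1 to TM 3, against 0.67, 0.52 and 0.49 per bp in DMSO 1 to DMSO 3. Neither KLF7 (log2 difference -0.22, SE 0.12, limma adjusted p = 0.24) nor CPS1 (-0.05, SE 0.19, limma adjusted p = 0.89) passed the test. Peaks were numbered along each chromosome, which bounds the number of peaks between these SEs. The interval held 54 to 71, 64 to 100 and 49 to 71 peaks in TM 1 to TM 3, the 10 or 11 peaks of the CREB1 SE included, and 40 to 78, 35 to 67 and 43 to 78 in DMSO 1 to DMSO 3. These bounds overlap, and the positions of the peaks outside SEs are not known.

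Above the CREB3L2 body, 850 to 862 kb away, all libraries listed an SE linked to ATP6V0A4, a subunit of the vacuolar proton pump. Its density was 0.92, 1.16 and 1.02 per bp in TM 1 to TM 3, against 0.69, 0.60 and 0.68 per bp in DMSO 1 to DMSO 3. Relative to the shift of the shared regions the log2 difference was 0.27 (SE 0.10, limma adjusted p = 0.095). It passed the test without centring, at 0.65 (limma adjusted p = 0.040), and on total signal, at 0.71 (limma adjusted p = 0.0022). Without centring, 133 of the 670 shared regions were called higher in TM and 1 lower, and on total signal 125 and 92. On the other side the nearest SE was linked to AKR1B1 in TM 1 and TM 3 and to BPGM in TM 2, and to CALD1, a gene of the actin cytoskeleton, in the DMSO libraries. The region of AKR1B1, the gene of aldose reductase, was listed in all 6 libraries. Its density was 0.71, 1.04 and 0.77 per bp in TM 1 to TM 3, against 0.93, 0.73 and 0.96 per bp in DMSO 1 to DMSO 3, so the groups overlapped. Relative to the shift of the shared regions it was lower in TM by the test (log2 difference -0.45, SE 0.10, limma adjusted p = 0.022). The difference did not pass without centring (-0.07, limma adjusted p = 0.84) or on total signal (-0.08, limma adjusted p = 0.57). The call was lost without TM 3, DMSO 1, DMSO 2 or DMSO 3 (limma adjusted p from 0.057 to 0.095).

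To see whether other parts of the pathway moved with these genes, 153 genes in 7 lists were looked up. SEs were linked to 26 of them. The share of all genes linked to an SE was not computed, so counts of linked genes are not read as few or many. Counting the members, 4 were linked in 3 TM and 0 DMSO libraries (CREB5, CREB1, ATF3 and PDE1C), 1 in 3 DMSO and 0 TM libraries (INHBA), and 9 in all 6. Across the 2002 genes linked in any library, 6.94% were linked in 3 TM and 0 DMSO libraries and 4.7% in 3 DMSO and 0 TM libraries.

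Of the 23 CREB and ATF family genes, 6 were linked to an SE. Beside CREB5 and CREB1, the family member linked in 3 TM and 0 DMSO libraries was ATF3, a stress-induced repressor and activator, with signals of 48738, 63115 and 53648 in TM 1 to TM 3. Its SE, 59.2 to 68.1 kb long, was stronger than those of CREB5 and CREB1 in every TM library. ATF6, an ERS sensor of the endoplasmic reticulum membrane, was linked in TM 2 only, where its SE had a signal of 28493. CREB3, CREB3L1, CREB3L3 and ATF4 were not linked in any list.

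The other 2 linked family members had an SE in all 6 libraries. CREB3L4, a close relative of CREB3L2, had a density of 0.55, 0.90 and 0.58 per bp in TM 1 to TM 3, against 0.67, 0.60 and 0.67 per bp in DMSO 1 to DMSO 3. The groups overlapped, and the log2 difference of -0.35 (SE 0.11) did not pass the test (limma adjusted p = 0.056), except when TM 2 was left out (-0.45, limma adjusted p = 0.022). ATF1, which dimerizes with CREB1, had a density of 1.05, 2.02 and 1.30 per bp in TM 1 to TM 3, against 0.94, 1.11 and 0.97 per bp in DMSO 1 to DMSO 3 at the SE in its own introns (log2 difference 0.10, SE 0.18, limma adjusted p = 0.72).

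In the list of cAMP synthesis and breakdown, which also held AKAP6, AKAP13 and RAPGEF3, 10 of 31 genes were linked. Of these, 4 were linked in all 6 libraries. These were the adenylyl cyclase ADCY9 and the phosphodiesterases PDE3A, PDE4B and PDE4D. PDE1C, a calcium-dependent phosphodiesterase on the same chromosome as CREB5, was linked in 3 TM and 0 DMSO libraries, with signals of 38053, 50631 and 36299 in TM 1 to TM 3. RAPGEF3, the cAMP sensor EPAC, was linked in 3 TM libraries and in DMSO 3, and its region was listed in 3 TM and 2 DMSO libraries.

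Of 26 CREB coactivators and kinases, 3 were linked (CRTC3, PRKAR1A and SIK1). PRKAR1A, the regulatory subunit that holds protein kinase A inactive until cAMP binds, had a density of 1.70, 2.74 and 1.93 per bp in TM 1 to TM 3, against 0.93, 0.82 and 1.00 per bp in DMSO 1 to DMSO 3. Density rose by 0.80 on the log2 scale (SE 0.13, limma adjusted p = 0.0070), whereas the difference in total signal was -0.04 (SE 0.12, limma adjusted p = 0.81). As signal is density times length, the listed SE was shorter in TM. Its length ran from 22.5 to 62.3 kb over the libraries, and its midpoint lay at -44.0 to -25.4 kb from the linked start.

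Among 21 CREB target genes, INHBA and DUSP1 were linked. INHBA, which encodes the activin A subunit, had 2 separate SEs in each DMSO library and none in TM, the nearer with signals of 51556, 32547 and 42652 in DMSO 1 to DMSO 3. The region of DUSP1, a phosphatase of MAP kinases, was listed in all 6 libraries, though linked to DUSP1 in 2 TM and 2 DMSO libraries and elsewhere to neighbours such as ERGIC1. Its density was 1.21, 1.62 and 1.35 per bp in TM 1 to TM 3, against 0.90, 0.73 and 0.77 per bp in DMSO 1 to DMSO 3, a log2 difference of 0.42 (SE 0.12, limma adjusted p = 0.039). That call was lost in the 5 fits without TM 1, TM 3, DMSO 1, DMSO 2 or DMSO 3 (limma adjusted p from 0.067 to 0.18).

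None of the 11 targets and processing enzymes of the CREB3 family was linked (0 of 11), nor were the 13 genes looked up because the study follows them with CREB5 (0 of 13). Lists this short may hold no linked gene whatever their function, and this was not tested. Of the 17 shared regions linked to list genes, 2 were higher and 0 lower in TM, beside 6.72% higher and 10.6% lower over all shared regions. Their median log2 difference was 0.07, against -0.03 over all shared regions.

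**Figure D4:**
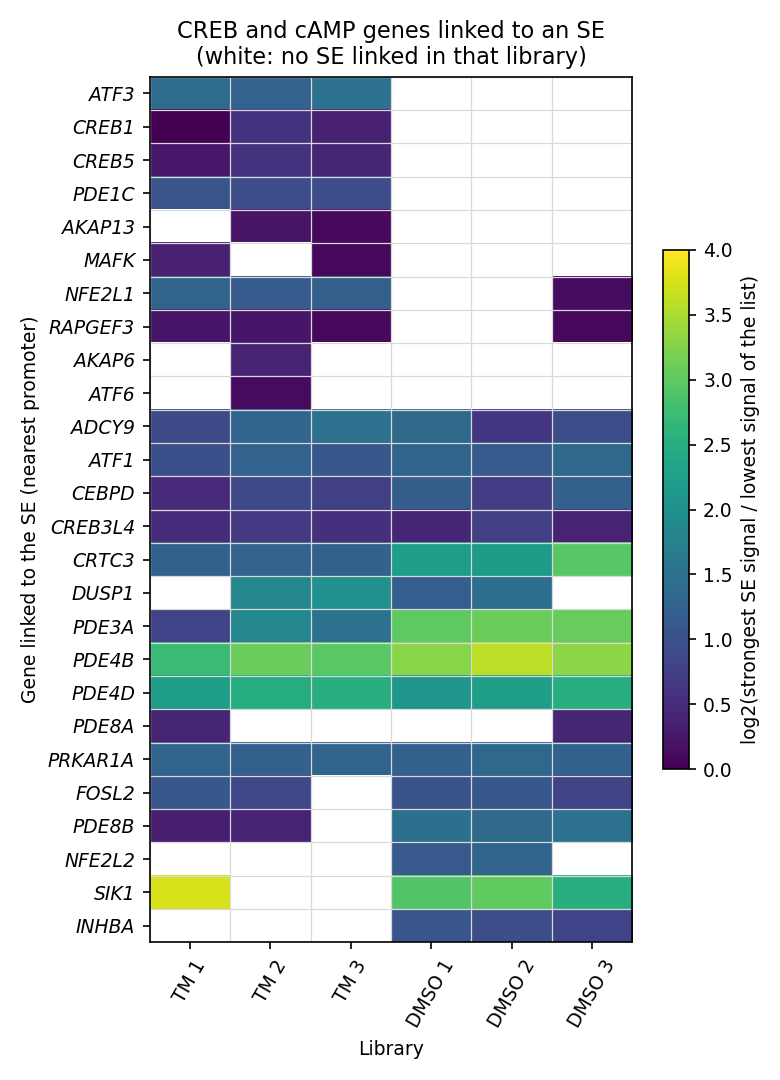
The 26 list genes linked to an SE (rows, ordered by the number of TM minus DMSO libraries) in each library (columns, TM left), coloured by the log2 ratio of the strongest linked SE to the lowest signal of the list, with white where no SE was linked. ATF3, CREB1, CREB5 and PDE1C are filled in the 3 TM columns alone and INHBA in the 3 DMSO columns alone. A white cell can also mean that the SE was linked to a neighbouring gene, as at NFE2L2, SIK1, DUSP1 and AKAP13.

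The regions most like each member were then sought, by the Euclidean distance over the 6 libraries of log2(1 + strongest signal / lowest signal of the list), with 0 where unlisted. A listed library scores at least 1 here, so any region with another pattern of calls lies at least 1 away. That the nearest regions shared the calls of the member was therefore set by the measure. For CREB5 the 5 nearest of all regions were those linked to LINC02762, COQ2, ADCYAP1, PIP5K1A and TPD52, at distances of 0.042 to 0.056, all listed in TM alone. PIP5K1A, a phosphoinositide kinase, was also like CREB5 in form, with a mean length of 13.5 kb, 2 peaks and a density of 2.20 per bp. For CREB1 they were EYA4, CASD1 with SGCE, SIGLEC15, LINC02225 and ADCYAP1, at 0.019 to 0.092, again listed in TM alone. ADCYAP1, which encodes the peptide PACAP that raises cAMP through its receptors, stood among the 5 nearest of both genes, and its signal was 1.12, 1.46 and 1.32 times the cutoff in TM 1 to TM 3.

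For the CREB3L2 body the nearest regions were LYRM9, IMMP2L, GPR141, PRICKLE1 and ERCC6L2, at 0.16 to 0.33. All were listed in DMSO alone, again as the measure sets. LYRM9 had ratios to the cutoff of 2.10, 2.38 and 2.84 in DMSO 1 to DMSO 3, beside 1.98, 2.19 and 2.50 at CREB3L2. All 5 had mean lengths of 63.2 to 90.5 kb and mean densities of 0.61 to 0.71 per bp, beside 69.6 kb and 0.73 per bp at the CREB3L2 body. This likeness describes levels over 6 libraries and was not tested.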

How the data were processed

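The authors performed H3K27ac ChIP-seq and deposited 1 SE list per library, with positions, linked gene and a signal column. The deposited signal equals a density in steps of 0.0001 per bp times the SE length. A legend of the study calls the H3K27ac signals of its TM ranking normalized to input. Whether the deposited column already is, and how it was scaled to depth, is not stated, and the input library was not analysed here. The labels describe sonication, immunoprecipitation and Illumina sequencing. The submitters' processing notes name CASAVA 1.4 and the builds hg38 and mm9 without roles. Gene starts implied by the lists lay within 5 kb of the GRCh38.p14 start for 9.87% of 7434 SEs.

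Groups came from the labelled treatment. Symbols were updated by Entrez ID (7434 of 7472). Calls were compared by exact permutation (scipy 1.17.1). Log2 density of the 670 shared regions, summed over SEs and centred on the library median, was tested with limma 3.58.1 (R 4.3.3, trend, Benjamini-Hochberg adjusted p under 0.05), after a test on simulated data. The text names the members, list genes, neighbouring SEs and the 5 most similar regions. Members and lists were chosen with earlier results of these data known. A result that falls under these lists is not reported here, and the list counts leave it out. Alternatives covered cutoffs, annotation, merging, scaling, trend, pairing and leaving out each library. Python 3.11.15, pandas 2.3.3, numpy 2.4.6 and matplotlib 3.10.9 were used.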

Additional observations from a re-analysis of the deposited data

How the results depend on the processing

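The calls at CREB5, CREB1 and the CREB3L2 body had a difference in the share of libraries listing them of 1, 1 and -1. No alternative reversed it, but most could not have done so. Leaving out a library cannot change such a difference, and a higher cutoff or equal list lengths can only remove calls. Requiring the highest cutoff of the 6 lists (26265) left a difference of 0.33 at CREB5 and at CREB1, where TM 2 alone still passed. Requiring the midpoint to be annotated to a transcript of the gene gave -0.67 at CREB3L2. The midpoint in DMSO 3 was annotated to the antisense transcript, which lies inside CREB3L2. The ratio of the lowest CREB3L2 signal to the highest TM cutoff, 1.40, was 2.47 after scaling by density and 1.90 after scaling by total signal, and 1.40 to 1.95 when a library was left out. With the highest cutoff, 47 regions were listed in TM alone and 42 in DMSO alone. Leaving out a library gave 141 to 202 TM-only regions and 102 to 149 DMSO-only regions, the last without TM 2. In the shared regions, 45 were higher and 71 lower in TM. Without centring these were 133 and 1, and on total signal 125 and 92, and leaving out a library gave 20 (without DMSO 1) to 59 higher and 25 (without DMSO 1) to 83 lower. The density difference at PRKAR1A, 0.80, was -0.041 on total signal. The deviations of same-numbered libraries were not correlated (r of -0.01, -0.05 and -0.03). They thus showed no shared effect in density, which cannot exclude that same-numbered libraries were prepared together. With a replicate block 46 regions were higher and 49 lower, and the calls at DUSP1, MIR550B1 and AKR1B1 were lost (adjusted p 0.080, 0.061 and 0.051). The cause of these changes was not tested. The lists hold no values below each cutoff, no read depth and no error on a single signal, which limits every comparison of a listed with an unlisted library.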

Other observations

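Of 30 other leucine zipper genes outside the CREB and ATF family, 5 were linked to an SE in any library. FOSL2, a FOS family partner of JUN proteins, was linked in 2 TM and 3 DMSO libraries, and its region was listed in all 6. NFE2L1, a factor of proteasome gene control that is anchored in the endoplasmic reticulum, was linked in 3 TM libraries with signals of 44703, 58158 and 43676 in TM 1 to TM 3, and in DMSO 3 with 26608. MAFK, a small MAF partner of such factors, was linked in TM 1 and TM 3 and in no DMSO library. NFE2L2, the regulator of antioxidant genes, was linked in 0 TM libraries and in DMSO 1 and DMSO 2, although its region was listed in all 6 libraries and elsewhere linked to MIR3128. CEBPD, a C/EBP factor, was linked in all 6 libraries at a region whose midpoint lay 220 to 232 kb from its start.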
